A study of Mus musculus with 6 samples.

Results

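The collagen and laminin genes of the mouse fetal ovary are described here, in ovaries from which Dmrt1 had been removed and in wild-type ovaries. Members were the probe sets whose platform annotation names exactly 1 symbol of the form Col, number, a, number (collagen chains) or Lam, a, b or c, number (laminin chains). They came to 101 of 45037 probe sets and to 52 of 18193 singly named genes, 42 collagens and 10 laminins. Ovaries were dissected from embryos at E15.5 and their RNA was measured on Affymetrix expression arrays. The knockout group held 3 arrays of ovaries labelled as Dmrt1 knockout, which the study's design text calls a conditional removal, and the control group held 3 arrays of wild-type ovaries. The labels do not give the strain, the Cre line or the cells in which it acts, nor whether a replicate is a separate animal. The tests thus set group differences against array-to-array spread, part or all of which may be technical.

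Collagens are trimers of chains that wind into a triple helix. Fibrillar collagens build the fibers of the stroma, type IV collagens form the sheet-like network of basement membranes, and other classes decorate fibrils, form beaded filaments or stay anchored in the cell membrane. Laminins are cross-shaped trimers of an alpha, a beta and a gamma chain that polymerise on cell surfaces and start basement membrane assembly. In the fetal ovary such membranes lie under the surface epithelium, around vessels and around the cords that enclose germ cells and pregranulosa cells. DMRT1 itself is a DM domain transcription factor known from testis and germ cell development.

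Over 22040 tested probe sets the correlation of log2 values ranged from 0.985 to 0.993 for arrays of the same group and from 0.973 to 0.980 for arrays of different groups. The median intensity was 13.2 to 13.4 units on knockout arrays and 14.4 to 14.7 on wild-type arrays. The single Dmrt1 probe set was dim in both groups and did not pass the filter on low values, at 5.97 to 8.55 units with the knockout label and 8.47 to 13.02 with the wild-type label. Whether it lies in the deleted part is not stated, so it does not check the labels. Xist, the RNA that coats the silenced X chromosome of female cells, averaged log2 1.81 over its 3 probe sets on knockout replicate 1. Every wild-type array lay between 10.7 and 10.9. The second knockout array stood at 9.85 and the third at 9.75, both below that range. Results are therefore also given without knockout replicate 1, but leaving it out does not level Xist between the groups. As a sign of RNA integrity, Gapdh control probe sets read higher at the 3' than at the 5' end, by 1.13 to 1.52 log2 units on knockout arrays and 0.99 to 1.30 on wild-type arrays. For beta-actin this gap was 2.45 to 2.75 and 2.28 to 2.74. Errors of differences below are limma's moderated standard errors (SE) with n = 3 arrays per group.

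Most collagen and laminin genes had a lower mean level in knockout than in wild-type ovaries, and a minority of them passed the test. Of 41 genes bright enough to test, counted through the brightest probe set of each, 8 fell in knockout, 0 rose and 33 did not pass the test (limma, adjusted p under 0.05 over all 22040 probe sets). The 8 were Col4a6, Col6a3, Col7a1, Col8a2, Col12a1, Col14a1, Lama2 and Lamc1. Col12a1 met the filter on low values only through the wild-type arrays, so its call lends no support. Over all 11897 tested genes 2.27% fell and 1.28% rose. The member genes had a median log2 difference, knockout minus wild type, of -0.35, or 78.2% of the wild-type level, against a median of 0.02 over all tested genes. Differences were negative for 36 of the 41 members (87.8%; 34 with median centring) and for 46.6% of all tested genes. Without knockout replicate 1, 35 of 41 differences were negative, the median was -0.29, and 3 genes were called, Col6a3, Col12a1 and Lamc1. Without wild-type replicate 1, 2 or 3, 3, 2 and 2 genes were called. Over all tested genes 1.41% fell without knockout replicate 1, and 0.841%, 0.841% and 0.925% without wild-type replicates 1, 2 and 3.

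**Figure D1:**
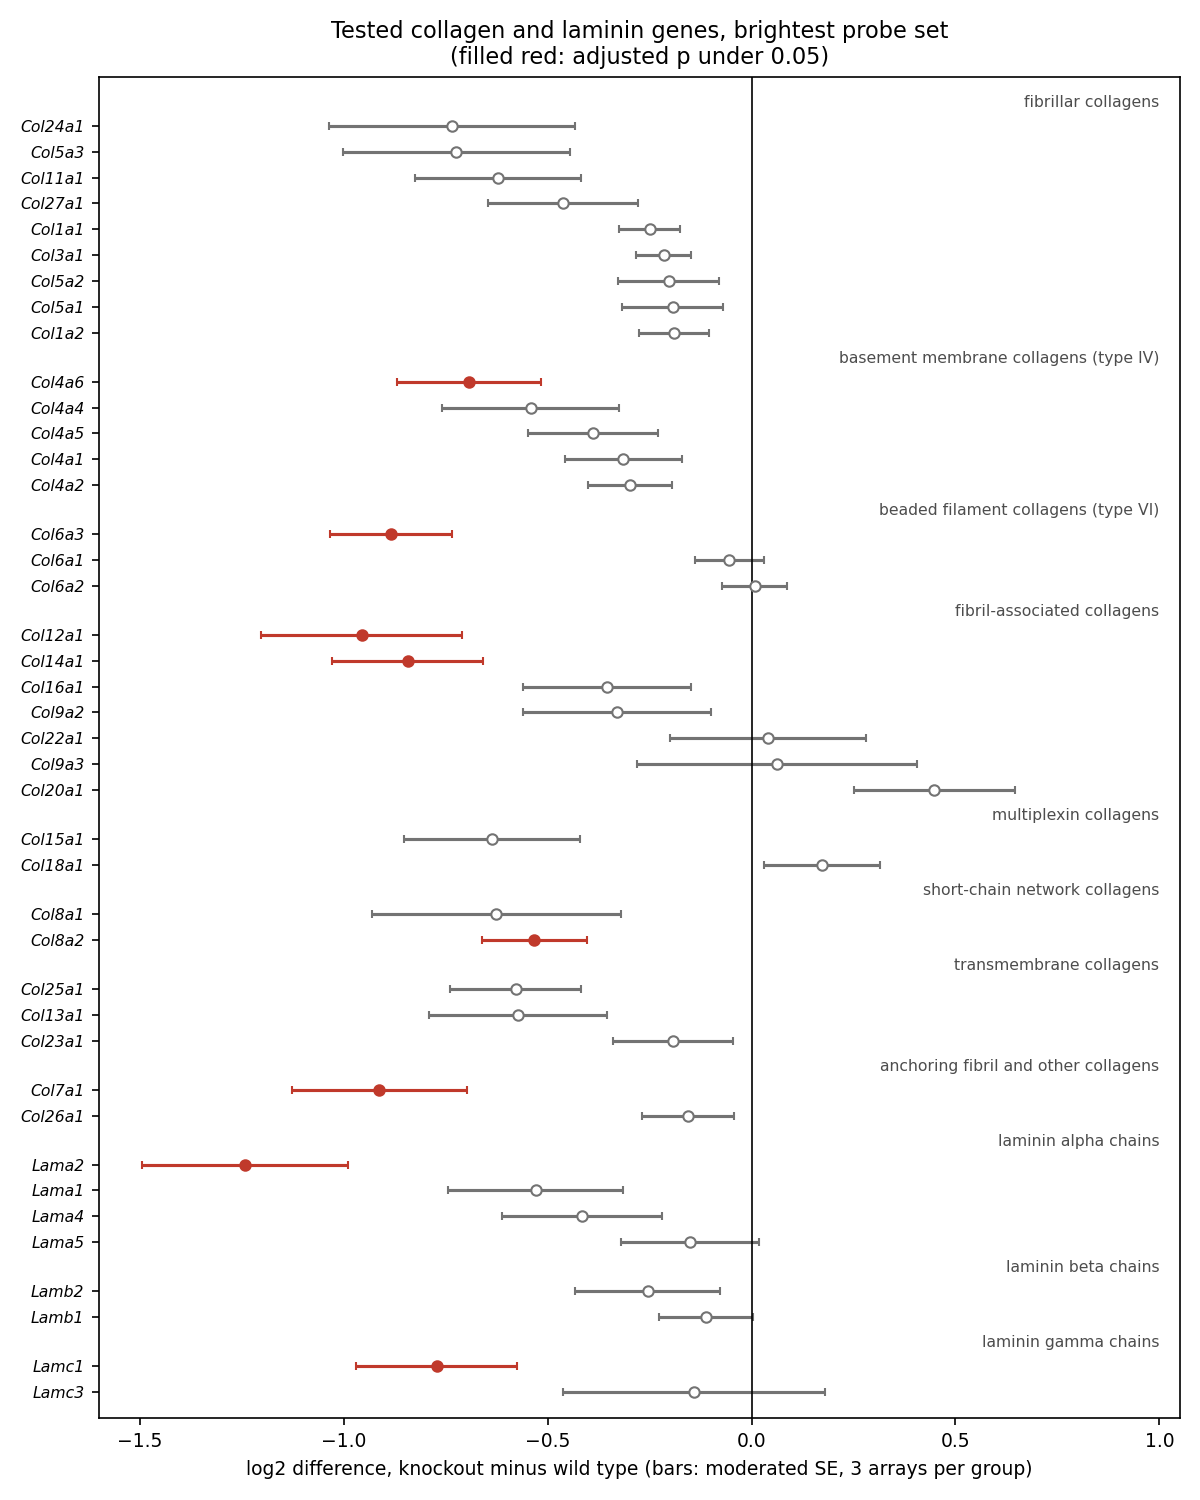
Log2 difference, knockout minus wild type, of the 41 tested collagen and laminin genes by structural class, with limma's moderated SE as bars and 3 arrays per group; filled red points passed an adjusted p of 0.05. Of the 41 points 36 lie left of 0, and the 8 filled ones are spread over collagen and laminin classes from -0.53 for Col8a2 to -1.24 for Lama2.

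In 18 of the 41 genes every knockout array lay below every wild-type array, which held for 11.4% of all tested genes. For Col12a1, 1 of the 18, the filter fixed this order. In 1 gene, Col20a1, every knockout array lay above, which held for 12.3% of all tested genes. The array with the lowest value was a knockout array for 39 of the 41 genes, and the array with the highest value was a wild-type array for 36. Over all tested genes knockout replicates 1 to 3 were lowest for 17.6%, 16.8% and 20.9%. Wild-type replicates 1 to 3 were highest for 11.9%, 11.6% and 15.3% of them. Knockout replicate 1 was lowest for 53.7% of the members and for 17.6% of all tested genes. Wild-type replicate 3 was highest for 48.8% of the members and for 15.3% of all tested genes. The median deviation of the members from their mean over 6 arrays was -0.26, -0.14 and -0.07 on knockout replicates 1 to 3 and 0.17, 0.14 and 0.26 on wild-type replicates 1 to 3. The groups did not overlap on that summary. The ovary is a mixture of cells, so fewer cells of a type and less RNA per cell cannot be told apart in any of these values.

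Lama2, the alpha chain of the laminin of muscle and mesenchymal basement membranes, showed the largest fall of the 41 genes. Its probe set read 55.0, 56.4 and 88.3 units on the knockout arrays, in the order of replicates 1 to 3, and 210, 130 and 133 on the wild-type arrays. The groups did not overlap, and wild-type replicate 1 stood above the other wild-type arrays. Lama2 fell by 1.24 ± 0.25 (limma's adjusted p = 0.0157), to 42.3% of the wild-type level. It no longer passed on leaving out the first knockout array (adjusted p = 0.0536) or the first wild-type array (0.0649), with differences of -1.12 and -1.02.

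The other alpha chains differed less and did not pass. Lama1, the alpha chain of the earliest embryonic laminin, differed by -0.53 ± 0.21 (limma's adjusted p = 0.196). Lama4, the chain of blood vessel laminins, differed by -0.42 ± 0.20 (0.267), and Lama5, a widespread epithelial chain, by -0.15 ± 0.17 (0.670). Lama4 read 804, 628 and 1143 on the knockout arrays and 1185, 1011 and 1142 on the wild-type arrays, so knockout replicate 3 lay inside the wild-type range. Lama3 did not pass the filter (log2 intensity of 4, or 16 units, on at least 3 of 6 arrays).

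Lamc1, the gamma chain shared by most laminins, read 274, 215 and 223 on the knockout arrays and 309, 494 and 428 on the wild-type arrays. The groups did not overlap, with wild-type replicate 1 closest to knockout. Lamc1 fell by 0.77 ± 0.20 (limma's adjusted p = 0.0448) through this brightest probe set, while its dimmer tested probe set differed by -0.25 ± 0.21 (0.558). Leaving out 1 array ended the call for knockout arrays 2 (0.0919) and 3 (0.0942) and for wild-type arrays 2 (0.184) and 3 (0.157), as did 5 other settings (0.0561 to 0.0992). Lamc3, a gamma chain of narrower distribution, differed by -0.14 ± 0.32 (0.854).

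Neither tested beta chain fell through its brightest probe set. Lamb1, the beta chain of most embryonic laminins, read 2664, 2939 and 3444 on the knockout arrays and 3596, 3034 and 3113 on the wild-type arrays, and the groups overlapped. It differed by -0.11 ± 0.12 (limma's adjusted p = 0.644), and by 0.026 with each array centred on its median. A second Lamb1 probe set differed by -0.09 ± 0.10 (0.670), while the dimmest tested one fell by 0.91 ± 0.22 (0.0372), from 90.1, 98.5 and 109 in wild type to 64.7, 59.3 and 38.4 in knockout. That call ended without knockout replicate 3 (0.0647) or any wild-type replicate (0.0853 to 0.138), with the replicate block (0.0731), quantile normalization (0.056), median centring (0.0618) and the stricter filter (0.0541). Lamb2, the beta chain of neuromuscular and kidney basement membranes, differed by -0.25 ± 0.18 (0.469). Of 8 tested laminin genes 2 fell, all 8 had a negative difference, and the median was -0.33. Of all tested genes 2.27% fell and 46.6% had a negative difference.

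**Figure D2:**
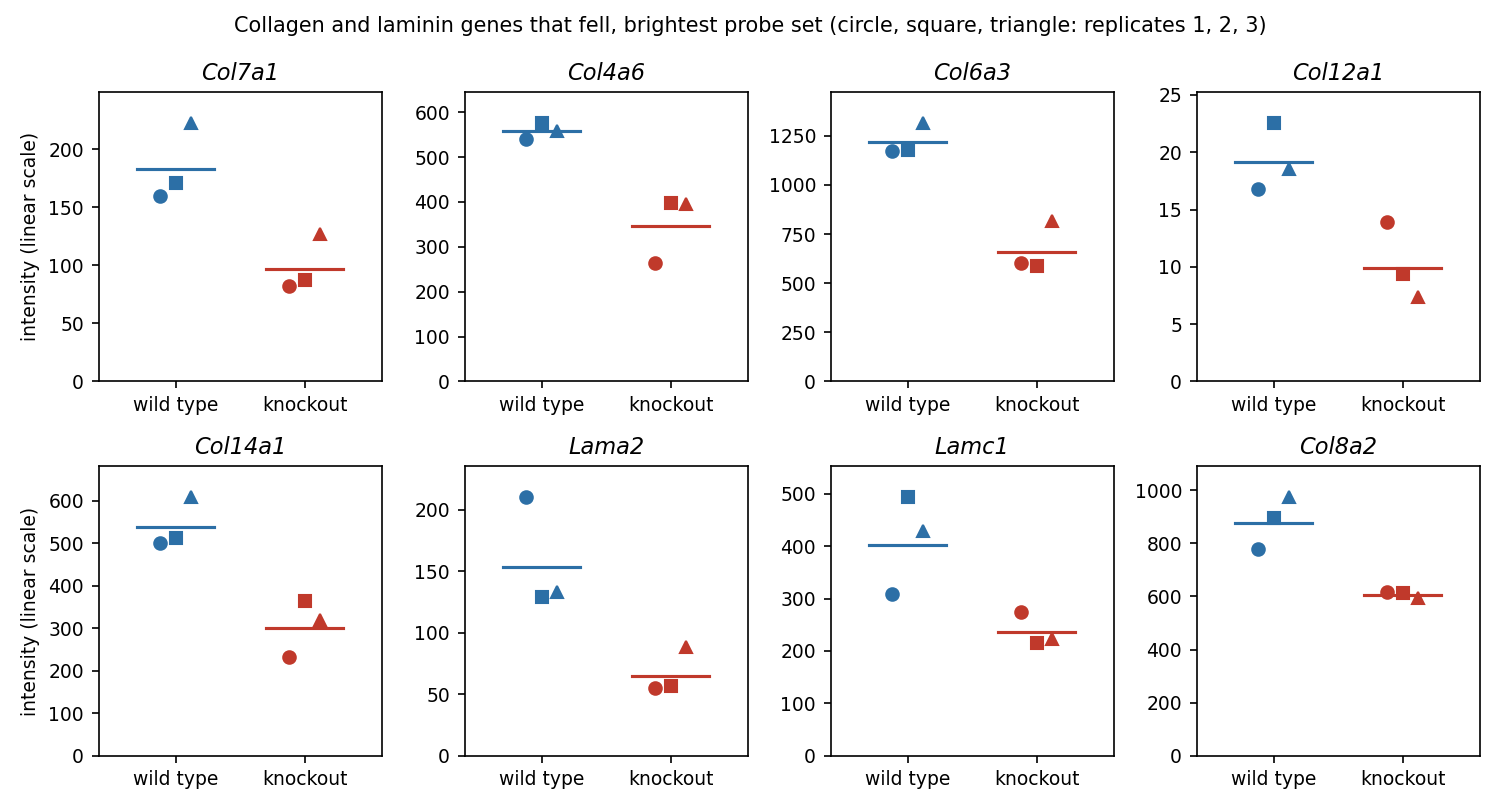
Intensity on a linear scale of the 8 genes that fell, through the brightest probe set of each, on wild-type (blue) and knockout (red) arrays; symbols mark replicates 1 to 3 and lines the mean of the log2 values. In all 8 panels the highest knockout array lies below the lowest wild-type array, with Lama2 falling from 130 to 210 units in wild type to 55.0 to 88.3 in knockout. For Col12a1 the filter fixed this order.

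All 5 tested type IV collagens, the network formers of basement membranes, had negative differences, with a median of -0.39. Through its brightest probe set 1 of them fell. The shares over all tested genes were 46.6% negative and 2.27% fallen. Col4a6, a chain of limited distribution that pairs with Col4a5, read 264, 397 and 394 on the knockout arrays and 541, 576 and 559 on the wild-type arrays. The wild-type arrays lay close together, and knockout replicate 1 was lowest. Col4a6 fell by 0.69 ± 0.18 (limma's adjusted p = 0.0452), and its dimmer probe set fell by 1.24 ± 0.20 (0.00392), from 130, 183 and 139 in wild type to 56.6, 60.3 and 74.0 in knockout. The dimmer probe set kept its call in all 16 other settings (limma's adjusted p 0.00259 to 0.0219). The brighter one lost it without knockout replicate 1 (0.0919) or any wild-type replicate (0.124 to 0.153), and in 5 other settings (0.052 to 0.0861). Col4a5 differed by -0.39 ± 0.16 (0.203) through its brightest probe set, with overlapping groups. Its dimmer probe set, at 24.0, 26.2 and 25.7 in knockout and 38.0, 40.6 and 39.1 in wild type, fell by 0.63 ± 0.16 (0.0483), a call that ended on leaving out any single array (0.0735 to 0.171), with the replicate block (0.136), quantile normalization (0.112) and median centring (0.0965).

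Col4a6 and Col4a5 are neighbours on the X chromosome and run in opposite directions from a shared upstream region. The RefSeq stretches before their annotated starts in build GRCm38.p6 are shown because both genes had a probe set that fell. GC boxes (GGGCGG or CCGCCC) and the core of the DMRT1 motif (ACAATGT or ACATTGT) would be in capitals, and neither stretch holds one. The first lies at chrX:141474096-141474326 on the minus strand and the second at chrX:141475169-141475369 on the plus strand.
Col4a6: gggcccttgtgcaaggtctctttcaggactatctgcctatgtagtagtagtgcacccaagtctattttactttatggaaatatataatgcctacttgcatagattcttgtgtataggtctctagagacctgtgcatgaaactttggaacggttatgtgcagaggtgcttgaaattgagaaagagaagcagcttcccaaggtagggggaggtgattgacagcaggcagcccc
Col4a5: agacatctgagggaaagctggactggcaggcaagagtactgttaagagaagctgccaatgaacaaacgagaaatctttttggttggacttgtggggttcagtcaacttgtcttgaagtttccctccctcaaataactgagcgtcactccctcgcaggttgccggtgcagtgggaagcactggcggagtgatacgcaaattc

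Col4a1 and Col4a2, the chains found in nearly every basement membrane and also encoded head to head, had similar values without a call. Col4a1 read 4433, 3137 and 4923 on the knockout arrays and 5034, 5083 and 5144 on the wild-type arrays, and Col4a2 read 4655, 3758 and 4529 against 4803, 5587 and 5476. In both genes every knockout array lay below every wild-type array. The differences were -0.31 ± 0.14 for Col4a1 (limma's adjusted p = 0.248) and -0.30 ± 0.10 for Col4a2 (0.129). Col4a4, a chain best known from the kidney filter, differed by -0.54 ± 0.22 (0.190), and its partner Col4a3 did not pass the filter.

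Among the type VI collagens, which form beaded filaments between cells and fibers, Col6a3 fell and its partner chains did not pass. Col6a3 read 602, 586 and 818 on the knockout arrays and 1174, 1175 and 1315 on the wild-type arrays, without overlap. It fell by 0.88 ± 0.15 (limma's adjusted p = 0.00594), to 54.2% of the wild-type level, and passed in all 17 other settings (0.00166 to 0.0324). Col6a1 differed by -0.05 ± 0.08 (0.773) and Col6a2 by 0.01 ± 0.08 (0.971). Col6a2 read 7909, 8759 and 9114 on the knockout arrays and 8005, 8422 and 9213 on the wild-type arrays, and these ranges nearly coincided. The change of Col6a3 minus that of Col6a1 was -0.83 ± 0.13 log2 units and minus that of Col6a2 -0.89 ± 0.12 (SE over the array ratios), with no overlap of the array ratios. The exact 2-sided permutation p was 0.1 for each, the smallest that 3 against 3 arrays can give (0.35 adjusted over 7 chain pairs). The chains also differed in level, at mean log2 9.81 for Col6a3, 12.39 for Col6a1 and 13.06 for Col6a2. Over all tested probe sets the median absolute difference was 0.17 at log2 8 to 10 and 0.07 at 12 and over. A dimmer Col6a2 probe set, at 11.32, differed by -0.12 ± 0.13. The part of level in the chain differences was not tested. The stretch before the Col6a3 start, at chr1:90844002-90844221 on the minus strand, is shown as that of the gene with the steadiest call, and it holds 0 GC boxes and 0 DMRT1 cores.
Col6a3: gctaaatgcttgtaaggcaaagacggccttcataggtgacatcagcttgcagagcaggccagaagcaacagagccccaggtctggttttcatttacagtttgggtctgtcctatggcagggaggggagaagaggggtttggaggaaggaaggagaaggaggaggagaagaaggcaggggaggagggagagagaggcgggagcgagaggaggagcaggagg

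The other 5 chain pairs, taken from trimers that share both chains, gave smaller or less regular differences between the changes. Col1a1 and Col1a2 differed by -0.06 ± 0.13, Col5a1 and Col5a2 by 0.01 ± 0.11, and Col4a2 and Col4a1 by 0.02 ± 0.13 (exact permutation p of 0.7, 1 and 1). Col4a6 minus Col4a5 came to -0.30 ± 0.16 and Lamc1 minus Lamb1 to -0.66 ± 0.34 (exact permutation p = 0.2 each, 0.35 adjusted), and the array ratios overlapped between groups in all 5 pairs. With each gene taken as the mean of its probe sets the Col5a1 and Col5a2 value was -0.59 and the Lamc1 and Lamb1 value -0.14. The pairs were chosen after the values were seen.

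All 9 tested fibrillar collagens had negative differences, from -0.19 to -0.73 with a median of -0.25, and 0 passed through the brightest probe set. A negative difference was found for 46.6% of all tested genes. An unadjusted limma p under 0.05 was found for 6 of the 9, and for 2076 of all 11897 tested genes in either direction. Col1a1, the main chain of type I collagen, read 6892, 6202 and 7140 on the knockout arrays and 7814, 8195 and 8016 on the wild-type arrays. The groups did not overlap, at a difference of -0.25 ± 0.07 (limma's adjusted p = 0.0806). Its dimmer probe set read 3089, 2493 and 3727 in knockout and 4320, 4858 and 4186 in wild type and fell by 0.54 ± 0.14 (0.0446). That second call ended in 10 of 16 other settings, among them without any array other than knockout replicate 3 (0.0577 to 0.17). Col1a2 differed by -0.19 ± 0.09 (0.246) and Col3a1, the companion of type I collagen in soft tissue, by -0.22 ± 0.07 (0.0957). Col3a1 is a neighbour of Col5a2 on chromosome 1, and Col5a2 differed by -0.20 ± 0.12 (0.399).

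Col5a1, a chain of the minor collagen that sets fibril diameter, gave different answers by probe set. The brightest read 1744, 2201 and 2416 on the knockout arrays and 2383, 2354 and 2473 on the wild-type arrays, with an overlap through knockout replicate 3, and differed by -0.19 ± 0.12 (limma's adjusted p = 0.427). The second read 739, 736 and 876 in knockout and 1294, 1563 and 1460 in wild type, with no overlap. It fell by 0.88 ± 0.13 (0.00243) and passed in all 16 other settings (0.00123 to 0.0189). The dimmest fell by 1.40 ± 0.33 (0.0312), from 121, 290 and 326 to 86.9, 94.8 and 74.9, and its wild-type arrays were spread more widely than its knockout arrays. The call of this dimmest probe set ended without any knockout replicate (0.0505 to 0.0848), without wild-type replicate 2 (0.116) or 3 (0.11), and with eBayes without a trend (0.0578). Averaged over probe sets, Col5a1 fell by 0.82 (0.0286).

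The remaining fibrillar genes were dimmer. Col11a1 differed by -0.62 ± 0.20 (limma's adjusted p = 0.112) with no overlap between groups, and its other tested probe set by -0.04 ± 0.25 (0.945). Col27a1, a fibrillar collagen of cartilage and embryonic epithelia, differed by -0.46 ± 0.18 (0.185), Col5a3 by -0.72 ± 0.28 (0.170) and Col24a1 by -0.73 ± 0.30 (0.202). The cartilage collagen genes Col2a1, Col9a1, Col10a1 and Col11a2 were among 11 member genes with no probe set past the filter. The other 7 were Col4a3, Col6a4, Col6a5, Col17a1, Col19a1, Lama3 and Lamb3, and the 17 probe sets of the 11 genes read between 2.44 and 21.0 units.

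Fibril-associated collagens, which sit on fibril surfaces and link them to other matrix, moved unevenly. Col14a1 read 232, 364 and 320 on the knockout arrays and 501, 511 and 608 on the wild-type arrays, without overlap, and fell by 0.84 ± 0.19 (limma's adjusted p = 0.0234). The call ended without knockout replicate 1 (0.0542), without each wild-type array (0.0666, 0.0689 and 0.107 for replicates 1, 2 and 3) and with averaged probe sets (0.0821). Its other tested probe set differed by -0.45 ± 0.23 (0.319). Col12a1, a relative of Col14a1 in dense connective tissue, was dim. It read 13.9, 9.36 and 7.39 in knockout, all under the filter level of 16, and 16.8, 22.6 and 18.6 in wild type. It thus met the filter only through the wild-type arrays, so its direction and lack of overlap follow from the filter and lend no support. It was called lower, by at least 1.20-fold (fitted difference -0.96 ± 0.25, 0.0466). That call ended in 12 of 16 other settings, among them without any array other than knockout replicate 1 (0.091 to 0.162). Of the 7 tested genes of this class 2 fell, against 2.27% of all tested genes. Col20a1 (0.45 ± 0.20, 0.233), Col9a3 (0.06 ± 0.34, 0.944) and Col22a1 (0.04 ± 0.24, 0.947) had positive differences that did not pass. Col20a1 read 20.5, 25.3 and 20.2 in knockout and 13.4, 19.1 and 16.1 in wild type, near the filter level.

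Among the smaller classes Col7a1 and Col8a2 fell. Col7a1, the chain of the anchoring fibrils under stratified epithelia, read 82.2, 87.1 and 127 on the knockout arrays and 160, 171 and 222 on the wild-type arrays. Replicate 3 was the highest array in both groups, and the groups did not overlap. Col7a1 fell by 0.91 ± 0.21 (limma's adjusted p = 0.0324), a call that ended without any array other than knockout replicate 3 (0.0648 to 0.138) and with median centring (0.0571). Col8a2, a short-chain collagen of the corneal and vascular matrix, read 615, 611 and 594 in knockout and 777, 895 and 974 in wild type. Its knockout arrays were the closest together of the 8 fallen genes. Col8a2 fell by 0.53 ± 0.13 (0.0361), a call that ended without any array other than wild-type replicate 1 (0.0516 to 0.182), with the stricter filter (0.0508), eBayes without a trend (0.0517), the replicate block (0.122) and median centring (0.097). The other chain of type VIII, Col8a1, differed by -0.63 ± 0.30 (0.283) near the filter level.

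The upstream stretches of these 2 genes, both on the plus strand of GRCm38.p6, carry GC boxes, which are in capitals. That of Col7a1 at chr9:108953336-108953585 holds 1 and that of Col8a2 at chr4:126286544-126286793 holds 3.
Col7a1: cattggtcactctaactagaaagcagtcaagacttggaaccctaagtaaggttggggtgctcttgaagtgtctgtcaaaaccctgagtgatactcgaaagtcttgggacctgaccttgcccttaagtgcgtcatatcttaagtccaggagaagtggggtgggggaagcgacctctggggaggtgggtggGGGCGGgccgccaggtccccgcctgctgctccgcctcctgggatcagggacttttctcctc
Col8a2: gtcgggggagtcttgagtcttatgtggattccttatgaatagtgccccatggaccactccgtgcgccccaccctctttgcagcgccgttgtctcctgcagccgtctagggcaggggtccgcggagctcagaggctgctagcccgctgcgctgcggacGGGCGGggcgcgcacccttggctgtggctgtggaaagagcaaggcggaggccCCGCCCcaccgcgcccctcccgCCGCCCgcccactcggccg

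RefSeq promoter windows, from 250 bases before to 50 after a start, were held for 38 of the 52 member genes (42 windows). No window was held for Col1a1, Col12a1, Col14a1 and Lamc1, which had a probe set that fell. The DMRT1 core ACAATGT or ACATTGT was in 0 of the 42, against 2.96% of all 32851 windows, and in 0 of the 8 windows of genes with a probe set that fell. GC boxes were in 25 of the 42 windows (59.5%), in 22 of the 32 windows of tested members (68.8%) and in 35.7% of all windows. They were in 7 of the 8 windows of genes with a fallen probe set. The windows of Col4a6 and Col4a5 hold theirs outside the stretches shown above. TATA boxes (TATAAA or TTTATA) were in 5 of the 42 (11.9%) and in 13.6% of all windows. The median GC content was 59.5% in members and 52.7% over all windows. These are matches of letters in short windows and say nothing of binding.

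Col15a1 and Col25a1 had no overlap between groups and did not pass. Col15a1, a basement membrane collagen of vessels and muscle, read 282, 345 and 539 on the knockout arrays and 542, 606 and 601 on the wild-type arrays. Knockout replicate 3 was close to wild-type replicate 1. It differed by -0.64 ± 0.22 (limma's adjusted p = 0.123) and passed with array weights (0.0375) and without knockout replicate 3 (0.00887). Col18a1, its multiplexin relative and the source of endostatin, differed by 0.17 ± 0.14 (0.548) and by 0.21 ± 0.11 (0.335) through its 2 probe sets, positive in both. Col25a1, a transmembrane collagen of neurons, read 371, 473 and 334 in knockout and 551, 558 and 634 in wild type. It differed by -0.58 ± 0.16 (0.0628) and passed with array weights (0.0335) and without knockout replicate 2 (0.0215). Col13a1 (-0.57 ± 0.22, 0.165), Col23a1 (-0.19 ± 0.15, 0.514), Col16a1 (-0.35 ± 0.21, 0.372) and Col26a1 (-0.16 ± 0.11, 0.486) also had negative differences without a call.

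Counted by probe set, 14 of 63 tested fell, 0 rose and 49 did not pass, where 5.15% of all tested probe sets fell and 1.46% rose. The 14 belonged to 12 genes, of which Col1a1, Col4a5, Col5a1 and Lamb1 fell only through a dimmer probe set. That of Col12a1, 1 of the 14 and below log2 6, met the filter only through the wild-type arrays, so its call lends no support. The part of the transcript each probe set reads is not known here. By mean log2 level, 0 of 8 member probe sets at 12 and over fell (differences -0.35 to 0.01), 2 of 13 at 10 to 12, 5 of 13 at 8 to 10, 5 of 15 at 6 to 8 and 2 of 14 below 6. In the same order, 9 of 1134, 99 of 3950, 146 of 5642, 272 of 5135 and 608 of 6179 of all tested probe sets fell. Over all tested probe sets the median absolute difference shrank from 0.27 below 6 to 0.07 at 12 and over, and in members from 0.43 to 0.23. Among 18 member genes with at least 2 tested probe sets the brightest had the smallest absolute difference in 10 (55.6%), against 51.7% of 4852 genes in all.

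**Figure D3:**
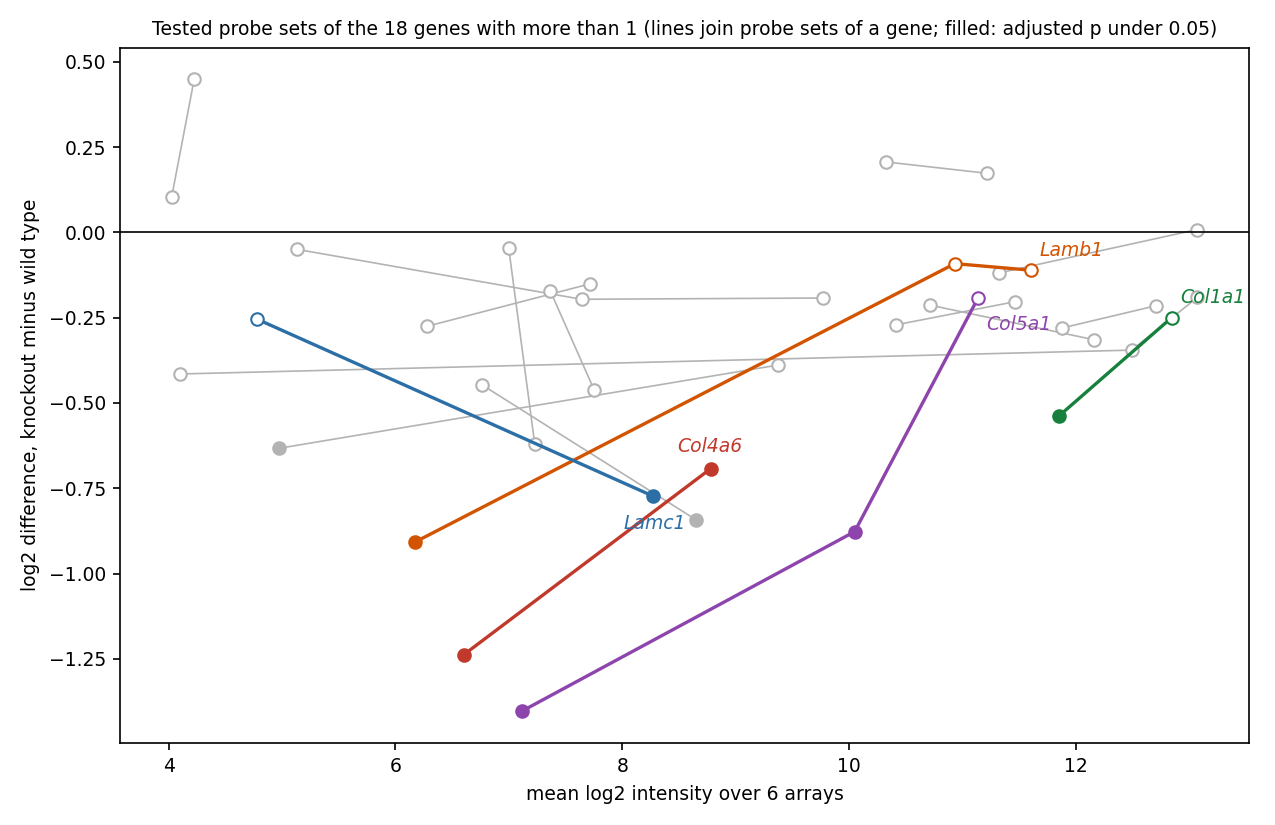
Log2 difference, knockout minus wild type, against the mean log2 intensity over 6 arrays for the tested probe sets of the 18 member genes that have more than 1; lines join the probe sets of a gene and filled points passed an adjusted p of 0.05. In Col5a1 the difference runs from -0.19 at the brightest to -1.40 at the dimmest probe set, while in Lamc1 the brighter one shows the larger fall.

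Of 59 tested genes that build, bind or remodel the same matrix, 3 fell and 0 rose, all 3 in the list of basement membrane and fibril partners. In that list 3 of 16 fell and 15 had a negative difference, with a median of -0.35. Of all tested genes 2.27% fell, 1.28% rose and 46.6% had a negative difference. Dcn and Lum of that list are also among the stroma markers given below. Fras1, an epithelial basement membrane protein that works in a complex with Frem1, read 103, 168 and 92.6 on the knockout arrays and 239, 378 and 339 on the wild-type arrays. It fell by 1.42 ± 0.25 (limma's adjusted p = 0.00799) and passed in all 17 other settings (0.00303 to 0.0382). Frem1 fell by 0.53 ± 0.12 (0.0306) and Agrn, a heparan sulfate proteoglycan that binds laminin, by 0.35 ± 0.08 (0.0348). The Frem1 call ended without knockout replicate 3 (0.0606) or any wild-type replicate (0.101 to 0.139) and the Agrn call without knockout replicate 1 (0.0689) or any wild-type replicate (0.0794 to 0.171). Both ended with eBayes without a trend (0.0535 and 0.14), the replicate block (0.107 and 0.138) and median centring (0.0836 and 0.152).

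Other matrix lists had 0 calls. Of 21 genes that fold, process and crosslink collagen, 12 had a negative difference (46.6% over all tested genes), with a median of -0.10. Adamts3, a protease that trims procollagen, differed by -0.78 ± 0.20 (limma's adjusted p = 0.0502) without overlap and passed in 5 other settings (0.00902 to 0.0493), and P3h2, a prolyl hydroxylase, by -0.57 ± 0.16 (0.0604), passing with array weights (0.0316) and without knockout replicate 3 (0.0211). P3h1 differed by -0.22 ± 0.09 (0.192), and by 0.022 over the mean of its probe sets. Of 9 receptors 4 had a negative difference (median 0.01), with Ddr2, a tyrosine kinase that binds fibrillar collagen, at -0.57 ± 0.17 (0.0819), Sdc1 at -0.27 ± 0.10 (0.163) and Itga1, a collagen-binding integrin, at -0.56 ± 0.23 (0.198). Of 13 proteases and inhibitors 10 had a negative difference (median -0.18), with Mrc2, a receptor that takes up collagen, at -0.47 ± 0.13 (0.0701), Timp3 at -0.40 ± 0.12 (0.0808) and Ctsk at -0.56 ± 0.25 (0.236).

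**Figure D4:**
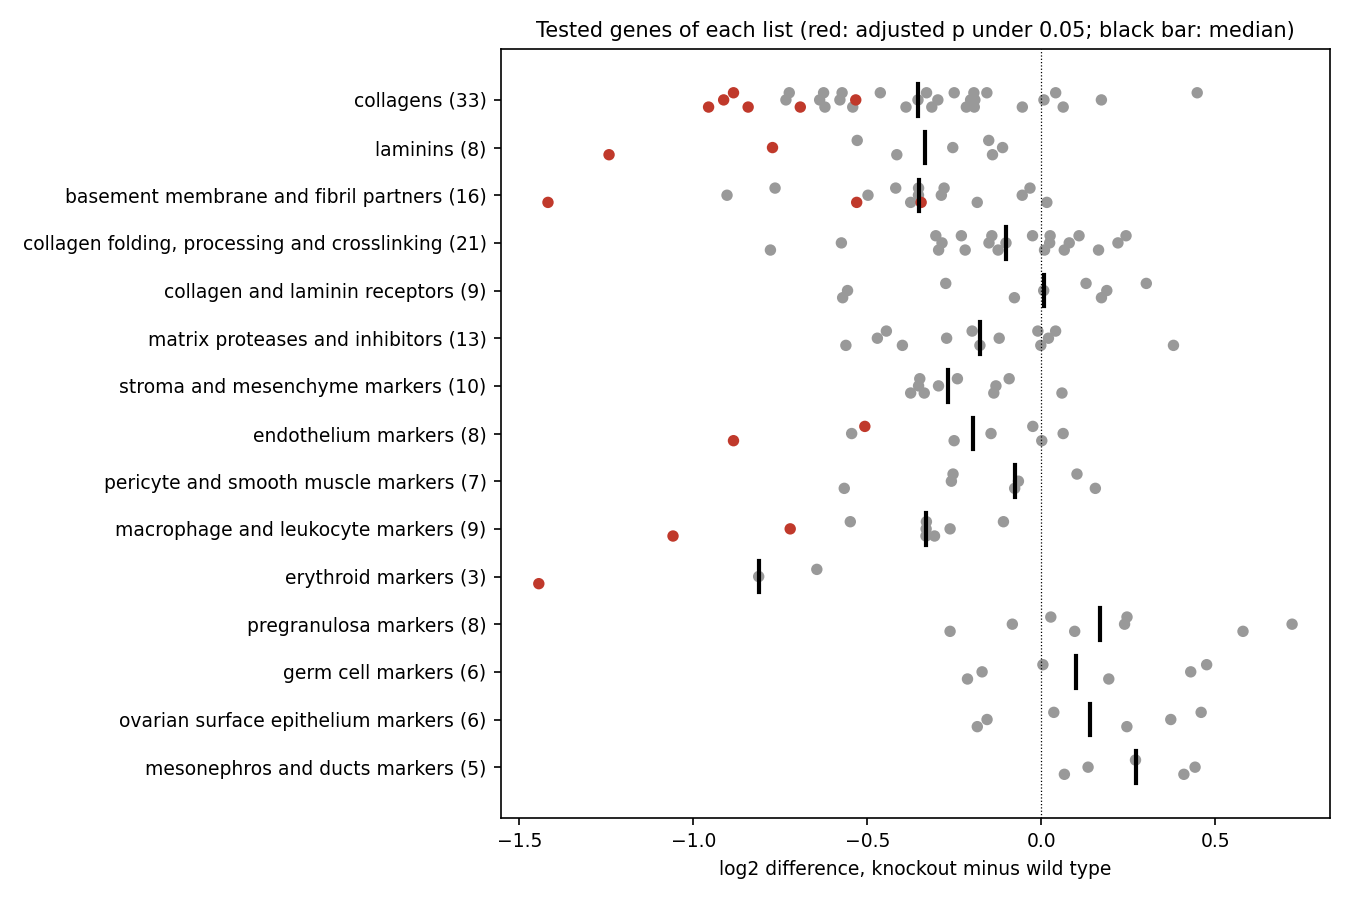
Log2 difference, knockout minus wild type, of the tested genes of each list, with the number of genes in brackets, red points at an adjusted p under 0.05 and a black bar at the median. The medians of collagens (-0.35), laminins (-0.33) and basement membrane and fibril partners (-0.35) lie left of 0, as do those of the stroma, endothelium and macrophage markers, while the pregranulosa, germ cell, surface epithelium and mesonephros medians lie right of it. Dcn and Lum are in both the stroma and the partner lists.

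Some markers of endothelial, macrophage and erythroid cells fell as well, while 0 stroma markers passed the test. Of all tested genes 2.27% fell and 46.6% had a negative difference. The summed intensity of 10 stroma markers ranged over 20432 to 21984 on knockout arrays and 22710 to 25183 on wild-type arrays. Of the 10, 9 had a negative difference, and the median was -0.27 (-0.17 without knockout replicate 1). Dcn and Lum, 2 of the 10, are also in the list of basement membrane and fibril partners. Of 8 endothelium markers Flt1 and Tek fell, 6 had a negative difference, and Tie1 (0.06) and Esam (0.002) had a positive one. The groups overlapped in Tie1 and Esam and also in Egfl7 (-0.02) and Cldn5 (-0.14). Summed intensities were 2505 to 3237 and 3320 to 3752, and the median was -0.20 (-0.18 without that array). Pecam1 and Cdh5 did not pass the filter. Of 9 macrophage markers Ptprc and Mrc1 fell, with overlapping sums of 5672 to 8895 and 7870 to 9720 and a median of -0.33 (-0.10 without that array). Of 7 pericyte and smooth muscle markers 0 fell, at a median of -0.08 and overlapping sums of 5683 to 6449 and 6088 to 6896. In the erythroid list Slc4a1 was 1 of 3 tested markers to fall, with sums of 332 to 489 and 485 to 1346 (median -0.81, and -0.63 without that array). Without knockout replicate 1 the Flt1 call held (limma's adjusted p = 0.0450), and those of Tek (0.112), Ptprc (0.0769), Mrc1 (0.0847) and Slc4a1 (0.0837) ended. The part of these cell types in the collagen and laminin result was not tested.

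Markers of pregranulosa, germ, surface epithelial and mesonephric cells had medians above 0 and 0 calls, where 2.27% of all tested genes fell and 1.28% rose. The medians were 0.17 for 8 pregranulosa markers, 0.10 for 6 germ cell markers, 0.14 for 6 surface epithelium markers and 0.27 for 5 mesonephros markers. Of the 8 pregranulosa markers 6 had a positive difference, while Foxl2 (-0.26) and Wnt4 (-0.08) had a negative one. Summed intensities of the 8 were 9930 to 11220 on knockout arrays, above the 9181 to 9622 of the wild-type arrays. Amhr2, the brightest, weighs most in these sums. It read 4266, 4594 and 5322 in knockout and 4100, 3950 and 3856 in wild type. Germ cell sums were 12073 to 16289 and 11399 to 13720. Surface epithelium sums were 8317 to 10447 and 8401 to 8774, and mesonephros sums 2936 to 4170 and 2977 to 3431.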

How the data were processed

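The authors deposited 1 intensity for each probe set and array, linear and never negative, from GCRMA according to the submitters' processing notes (no version named). GCRMA pulls dim values to a floor, and no detection calls came with them; precision is limited by the number of arrays. The intensities were taken to log2, and 64 of 45101 probe sets, all controls, were dropped. Testing needed log2 4 (intensity 16) or more on at least 3 of 6 arrays, and 63 of 101 member probe sets and 41 of 52 member genes met this. The 2 groups were tested in R 4.3.3 with limma 3.58.1 (lmFit and eBayes with trend, genotype only, 2-sided, Benjamini-Hochberg adjustment over 22040 probe sets, threshold 0.05). A gene was counted through its brightest tested probe set. Symbols came from the platform annotation, and 0 changed on updating through RefSeq. Identical arrays were checked for, with 0 pairs found.

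Genes given by array are members with a probe set past the threshold and the lowest p in each class, with up to 3 genes of each matrix list. The members and lists were chosen with earlier results of these data known. On simulated arrays of 22040 probe sets the fit recovered 4, 27, 49 and 50 of 50 probe sets lowered by 0.5, 1, 2 and 3 log2 units. Fewer probe sets were changed there than were called in the data, so these rates need not hold for the data. Alternatives covered the filter, a pseudocount of 16, the variance model, array weights, a replicate block, normalization, probe set choice and each array left out. Same-numbered replicates deviated from their group means with correlations of -0.165, -0.247 and -0.168, so the numbers were not taken as pairs.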

Additional observations from a re-analysis of the deposited data

How the results depend on the processing

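The 8 member genes that fell became 4 under the stricter filter, with eBayes without a trend and with the replicate block, with Col6a3, Col7a1, Col14a1 and Lama2 left in each, and 3 with median centring (Col6a3, Col14a1 and Lama2). Over all tested genes 1.73%, 1.71%, 1.15% and 1.08% fell in these 4 settings in that order, against 2.27% in the main fit. Without 1 array 2 to 7 member genes fell, and 2 to 5 of these were among the 8. Of all tested genes 0.841% to 2.75% fell without 1 array. The 14 probe sets that fell became 7 under the stricter filter, 8 without the trend, 7 with the replicate block, 9 with quantile normalization and 6 with median centring, and 4 to 12 without 1 array. Without a filter 1 gene (Col19a1, by 0.80 ± 0.19, limma adjusted p = 0.0312, at most 9.55 units) and 2 probe sets rose, and Col17a1 joined the genes that fell. The members' median difference was -0.22 with median centring, which moved the median of all genes from 0.02 to 0.16 and their calls from 270 lower and 152 higher to 128 and 506. It was -0.29 to -0.45 without 1 array and negative in every setting. The 3 matrix pathway genes became 5 without a filter and on dropping the _s_at and _x_at probe sets, which may match more than 1 transcript, 12 with array weights, 1 without the trend, with the replicate block and with median centring, and 1 to 7 without 1 array. The difference turned sign in at least 1 setting for 7 members, 0 of them called (Col6a1, Col6a2, Col9a3, Col18a1, Col22a1, Lamb1 at 0.026 with median centring, and Lamc3), and, among the matrix genes given with values, for P3h1 (0.022, mean of probe sets). The differences between chains of Col1a1 and Col1a2, Col4a2 and Col4a1, and Col5a1 and Col5a2 (-0.06, 0.02 and 0.01 as reported) also took both signs. Of 6 arrays 0 correlated best with the array of their own number. Correlations were 0.985 or more within groups and 0.980 or less between them. A search over all arrays could thus give no other count, which then says nothing of pairing. Changes of 0.5 log2 units were seldom recovered in simulated arrays (4 of 50). Fewer probe sets were changed there than were called in the data, so that rate is not the sensitivity of this comparison. A missed threshold does not show that a member did not differ.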
